A study of Saccharomyces cerevisiae with 4 samples.

Results

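The genes described here are 59 factors that build and export the large (60S) subunit of the ribosome in budding yeast, Saccharomyces cerevisiae. They were taken by systematic name from a table of 7126 features, and all 59 were found in it. A new 60S subunit starts in the nucleolus as a long ribosomal RNA precursor onto which assembly factors and ribosomal proteins load. RNA helicases, GTPases and a large AAA-type ATPase then remodel the particle, an adapter carries it through the nuclear pore, and the last factors are stripped off in the cytoplasm. In this yeast the genes for these factors form a regulon that is transcribed strongly in growing cells and turned down in stress, and many of their promoters carry 2 short DNA motifs, PAC and RRPE.

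RNA was sequenced from 4 samples of strain DPY438, whose genotype label is Hsf1-AA. AA stands for anchor-away, a method in which rapamycin tethers a tagged nuclear protein to a protein that leaves the nucleus, here Hsf1, the activator of chaperone genes. The 4 groups were 10 min at 39 °C with 1 µM rapamycin for 45 min (HS_+Rapa), 10 min at 39 °C without rapamycin (HS_noRapa), 30 °C with rapamycin (NHS_+Rapa) and 30 °C without it (NHS_noRapa), with 1 library each; the tagged Hsf1 is in every group. Rapamycin is also an inhibitor of TORC1, the kinase complex that sustains ribosome production in growing yeast. Anchor-away strains are usually built on a rapamycin-resistant TOR1 allele, and the genotype label here names Hsf1-AA alone.

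Libraries held 1561620 to 3231228 counted reads, of which 59.5% to 66.5% fell on protein-coding genes. Levels are normalised reads, the deposited counts scaled by a factor for each library, and ratios were read over the 5642 features with a mean of at least 5 normalised reads, called kept features; all 59 genes are among them. Log2 ratios are of (value + 1) and folds are plain ratios. With 1 library per group no difference has a replicate check and the ratios given here carry no test; the alternatives include a count test with heat and drug as terms. A gene is called higher or lower when it passes a 2-fold rule of size, and 95% intervals in parentheses cover counting error only. SSA4, an Hsp70 gene activated by Hsf1, stood at 402 normalised reads in HS_+Rapa, 42107 in HS_noRapa, 525 in NHS_+Rapa and 169 in NHS_noRapa, highest in HS_noRapa. HSF1 mRNA, at 225, 288, 107 and 157 normalised reads in the same order, checks nothing, since the method moves the protein. Other genes checked were HSP26, HSP104 and ACT1. In heat shock with rapamycin their log2 ratios were 3.69, 2.81 and -0.33, against 8.01, 5.22 and -0.03 without it. HSP26 and HSP104 thus still rose with the drug present, by less. Rapamycin at 30 °C gave log2 ratios of 1.63 for SSA4, 1.84 for HSP26, -0.49 for HSP104 and -0.08 for ACT1. In RNA from a whole culture, less RNA in each cell and RNA lost from some of the cells cannot be told apart.

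The promoters are shown first, because they are what most of the 59 genes share. PAC was searched as its core GATGAG and RRPE as its core AAAATTT, on both strands, in the 300 bases before each start codon of assembly R64. Each line gives bases 240 to 81 before the start codon, 5′ to 3′ on the gene's strand, with matches to either core in capitals; CTCATC is the PAC core on the other strand, and AAAATTTT holds the RRPE core on both strands. RPF2, BRX1 and REI1 are shown as the genes with the lowest ratios in heat shock without rapamycin, NOP7 and NOG1 as genes with several PAC cores, SPB1 as a gene without a PAC core, RRP1 as a gene without an RRPE core, and MDN1 and TIF6 as the genes least reduced in that comparison.
RPF2: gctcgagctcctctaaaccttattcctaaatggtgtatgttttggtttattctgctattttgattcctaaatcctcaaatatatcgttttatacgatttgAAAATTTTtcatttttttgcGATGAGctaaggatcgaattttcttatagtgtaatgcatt
BRX1: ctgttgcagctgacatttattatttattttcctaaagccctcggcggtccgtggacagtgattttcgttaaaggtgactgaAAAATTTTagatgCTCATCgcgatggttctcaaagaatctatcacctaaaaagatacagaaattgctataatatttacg
REI1: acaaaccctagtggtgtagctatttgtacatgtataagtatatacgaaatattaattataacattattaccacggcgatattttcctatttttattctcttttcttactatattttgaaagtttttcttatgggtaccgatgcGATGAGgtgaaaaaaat
NOP7: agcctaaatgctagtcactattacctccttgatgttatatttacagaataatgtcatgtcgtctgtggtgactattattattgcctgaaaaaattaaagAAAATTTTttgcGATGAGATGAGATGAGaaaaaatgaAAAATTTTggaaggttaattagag
NOG1: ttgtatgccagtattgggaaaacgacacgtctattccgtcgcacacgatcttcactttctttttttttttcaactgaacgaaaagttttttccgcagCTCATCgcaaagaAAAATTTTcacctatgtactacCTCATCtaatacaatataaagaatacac
SPB1: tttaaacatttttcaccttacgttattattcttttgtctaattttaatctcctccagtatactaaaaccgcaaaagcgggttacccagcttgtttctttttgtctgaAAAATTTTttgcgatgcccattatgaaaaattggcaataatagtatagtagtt
RRP1: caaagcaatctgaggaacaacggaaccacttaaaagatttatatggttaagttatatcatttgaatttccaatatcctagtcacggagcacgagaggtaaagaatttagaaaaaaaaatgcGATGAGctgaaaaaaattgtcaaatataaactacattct
MDN1: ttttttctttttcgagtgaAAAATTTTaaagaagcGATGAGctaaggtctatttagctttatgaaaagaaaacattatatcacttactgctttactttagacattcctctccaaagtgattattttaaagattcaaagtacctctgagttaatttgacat
TIF6: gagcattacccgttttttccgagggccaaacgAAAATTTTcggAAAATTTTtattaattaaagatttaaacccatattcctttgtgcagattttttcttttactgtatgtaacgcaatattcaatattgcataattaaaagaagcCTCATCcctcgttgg
The RPF2 stretch is chrXI:592621-592780, minus strand. The BRX1 stretch is chrXV:186804-186963, minus strand. The REI1 stretch is chrII:739601-739760, plus strand. The NOP7 stretch is chrVII:695177-695336, plus strand. The NOG1 stretch is chrXVI:370738-370897, plus strand. The SPB1 stretch is chrIII:31209-31368, plus strand. The RRP1 stretch is chrIV:618387-618546, minus strand. The MDN1 stretch is chrXII:363819-363978, minus strand. The TIF6 stretch is chrXVI:593150-593309, minus strand. NOP7 carries 3 overlapping PAC cores between a pair of RRPE cores. The RRPE core of REI1 runs over the end of the printed stretch, so its first bases stand there in lower case.

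In heat shock without rapamycin the 60S assembly genes were low almost without exception. Of the 59 genes, 57 had ratios of 2-fold or more below 30 °C, 51 of them of 4-fold or more, and none stood 2-fold above it. Over all 5642 kept features, 19.3% were at least 2-fold lower, 6.4% at least 4-fold lower and 19.8% at least 2-fold higher. The median log2 ratio was -2.95 over the 59 genes and 0.02 over all kept features. Their summed level was 3430 normalised reads at 39 °C against 18520 at 30 °C, 5.40-fold lower (5.16 to 5.65), and their share of all counted reads was 0.113% (0.108 to 0.118) against 0.830% (0.815 to 0.844).

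**Figure D1:**
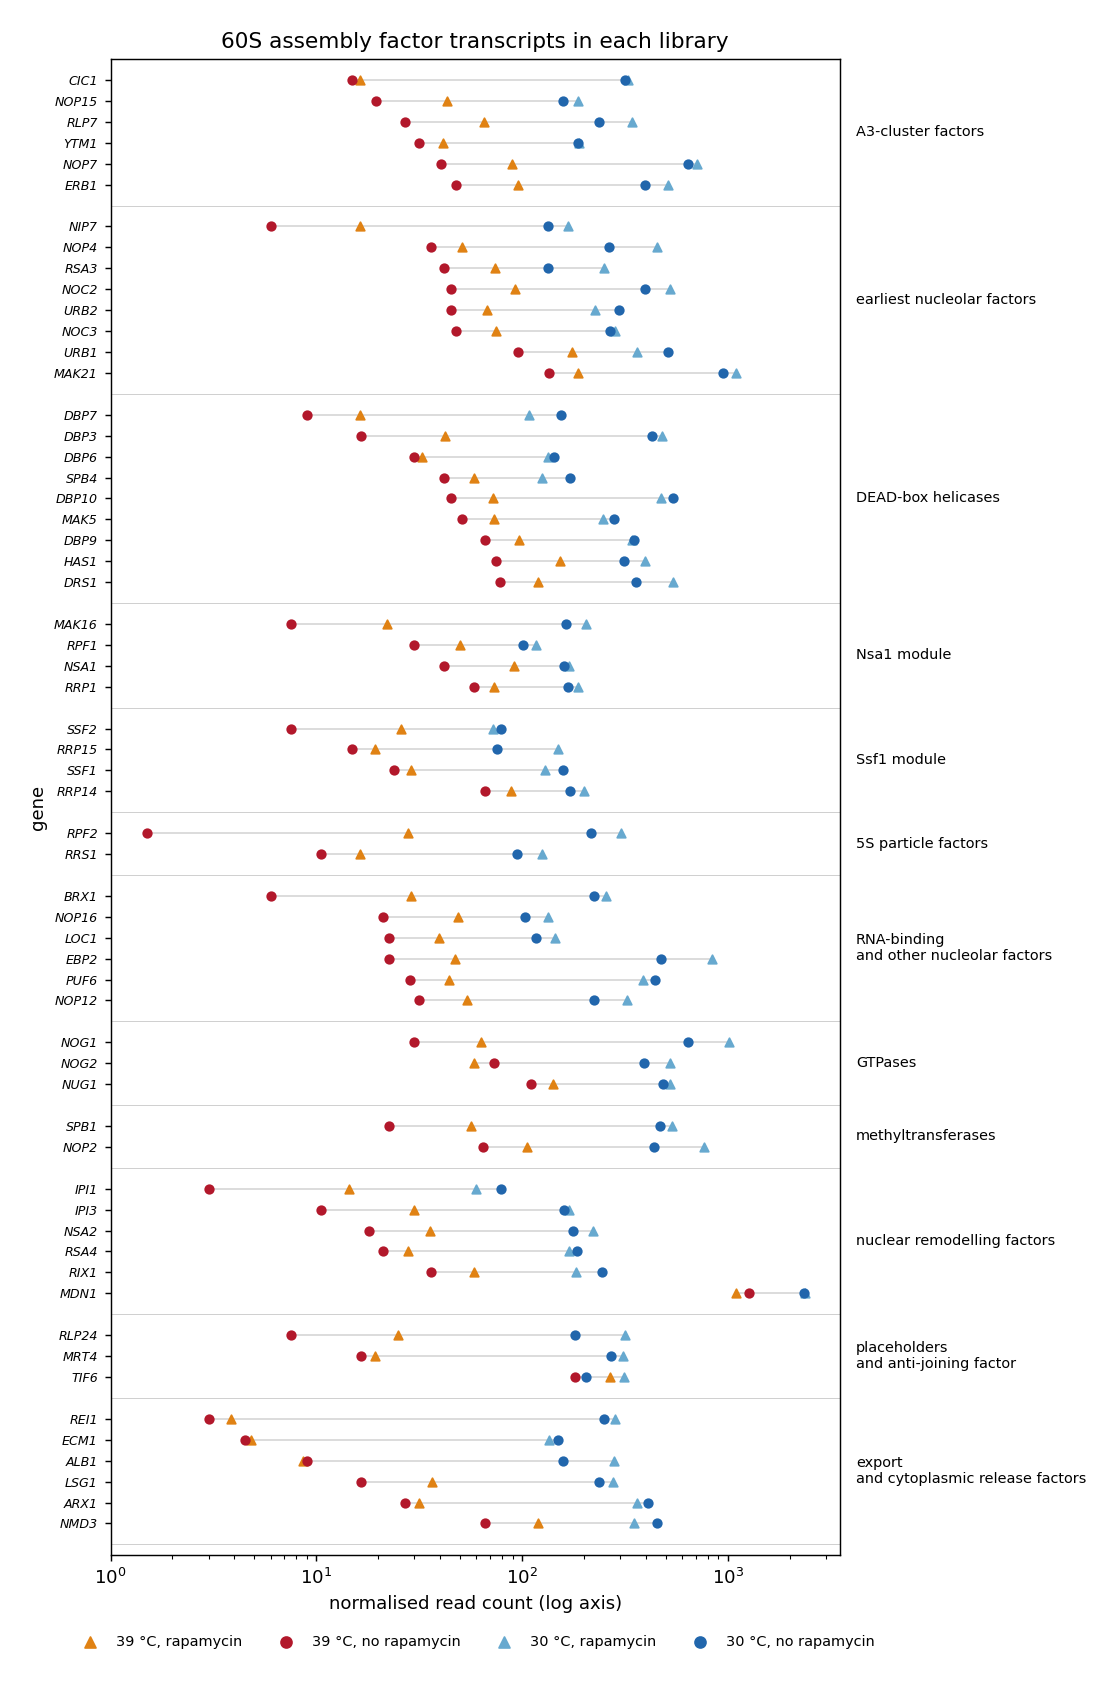
Each row is 1 of the 59 genes, grouped by role; the log axis gives the normalised read count in each of the 4 libraries (triangles, rapamycin; circles, no rapamycin; orange and red, 39 °C; blues, 30 °C). The 39 °C points lie to the left of both 30 °C points in every row except TIF6, whose 267 normalised reads in HS_+Rapa exceed the 204 in NHS_noRapa. How many of all kept features separate in this way was not counted.

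With rapamycin present, heat shock gave nearly the same picture with smaller ratios. Again 57 of the 59 genes passed the rule downward, 37 of them by 4-fold or more, and none passed it upward, against 14.6%, 3.63% and 18.3% of all kept features. The median log2 ratio was -2.50, against -0.0020 over all kept features. In both comparisons 56 genes were at least 2-fold lower, where 11% of kept features were. The 3 others were TIF6, between the limits in both, MDN1, between them without rapamycin, and NSA1, between them with rapamycin. Summed over the 59 genes the level was 4666 normalised reads in HS_+Rapa and 21389 in NHS_+Rapa, 4.58-fold lower (4.44 to 4.73).

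**Figure D2:**
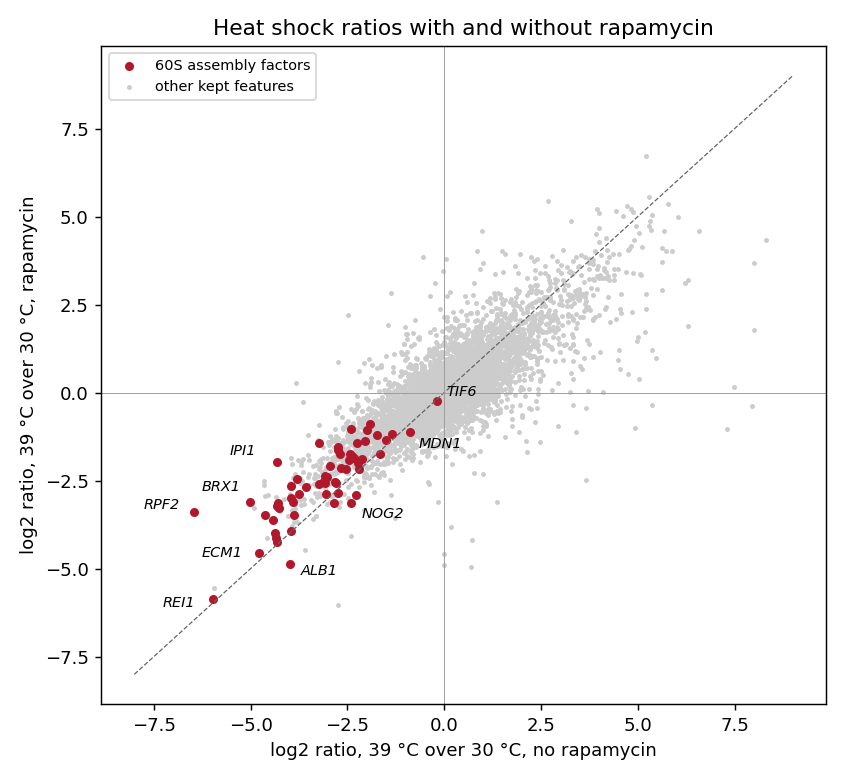
Each point is a kept feature, placed by its log2 ratio of 39 over 30 °C without rapamycin (x) and with rapamycin (y), on log2(value + 1); red points are the 59 genes and the dashed line marks equal ratios. The red points run along the lower left of the cloud, from TIF6 near 0 to RPF2 at -6.45 without rapamycin and REI1 at -5.87 with it.

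The order of the genes was similar in the 2 heat comparisons, which share no library. Across the 59 genes the 2 log2 ratios had a Pearson correlation of 0.82 and a Spearman correlation of 0.83; across all 5642 kept features these were 0.80 and 0.78. The genes share libraries and depth, so the correlations are descriptions.

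The earliest steps were low together. Of 8 factors that load on the first precursor particles, all were at least 2-fold lower in both comparisons, with median log2 ratios of -2.20 with rapamycin and -2.75 without it. MAK21, whose protein forms a complex with that of NOC2 on early particles, stood at 187 normalised reads in HS_+Rapa, 135 in HS_noRapa, 1091 in NHS_+Rapa and 952 in NHS_noRapa. It was 7.06-fold lower in heat shock without rapamycin (5.66 to 8.90). NIP7 (YPL211W), a small protein needed for processing of the precursor RNA, had 16.3, 6.0, 168 and 134 normalised reads in the same order of libraries and was 22.4-fold lower without rapamycin (8.47 to 84.0), from 4 reads in HS_noRapa. RSA3 was the least reduced of the group without rapamycin, at 74.0, 42.0, 251 and 134, 3.20-fold lower (2.08 to 5.07). NOC2, the partner of MAK21, had 92.2, 45.0, 525 and 396, NOC3, which pairs with NOC2 on later particles, had 74.9, 48.0, 283 and 269, and the RNA-binding factor NOP4 had 50.9, 36.0, 450.4 and 266. All 8 were lower at 39 °C in both pairs of libraries by the 2-fold rule, which 11% of all kept features met in both.

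URB1, a large nucleolar protein of the first particles, was the early factor whose heat ratio differed most with the drug. It had 176 normalised reads in HS_+Rapa, 95.9 in HS_noRapa, 361 in NHS_+Rapa and 513 in NHS_noRapa. Heat shock left it 2.05-fold lower with rapamycin (1.72 to 2.46) and 5.35-fold lower without (4.09 to 7.09). Its partner URB2, at 67.3, 45.0, 227 and 295, was 3.38-fold lower with rapamycin (2.59 to 4.47) and 6.55-fold lower without (4.45 to 9.95).

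The A3-cluster factors, which act together in trimming the internal spacer of the precursor RNA, were all 6 at least 4-fold lower in both comparisons. Of all kept features, 3.63% were at least 4-fold lower with rapamycin and 6.4% without, and the share lower in both was not counted. NOP7 (YGR103W, chromosome VII 695417 to 697234), the scaffold of a complex with the products of ERB1 and YTM1, stood at 89.3 normalised reads in HS_+Rapa, 40.5 in HS_noRapa, 712 in NHS_+Rapa and 638 in NHS_noRapa. It was 7.96-fold lower with rapamycin (6.42 to 9.98) and 15.8-fold lower without (10.7 to 24.2). ERB1 had 96.1, 48.0, 513 and 396 in the same order, and YTM1 had 41.3, 31.5, 189 and 187. RLP7, related to a ribosomal protein, had 65.3, 27.0, 342 and 236, and NOP15, an RNA-binding protein, had 43.2, 19.5, 187 and 157. CIC1, an RNA-binding member of the cluster, was at 16.3 and 15.0 in the 2 heat shock libraries, against 329 and 316 at 30 °C. It was 20.1-fold lower with rapamycin (12.4 to 34.9) and 21.1-fold lower without (11.2 to 44.6).

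The 9 DEAD-box RNA helicases, which open RNA duplexes in the particle, were all at least 2-fold lower in both comparisons, with medians of -2.0 with rapamycin and -2.39 without. DBP3 was the lowest, with 42.3 normalised reads in HS_+Rapa, 16.5 in HS_noRapa, 480 in NHS_+Rapa and 427 in NHS_noRapa. It was 11.3-fold lower with rapamycin (8.34 to 15.8) and 25.9-fold lower without (14.3 to 52.5). Without rapamycin the others ran from DBP7 at 17.2-fold lower (7.63 to 47.8) through DBP10 (12.1), MAK5 (5.47), DBP9 (5.29), DBP6 (4.77), DRS1 (4.6) and HAS1 (4.16) to SPB4 at 4.05-fold (2.67 to 6.36). HAS1, a helicase of both subunit pathways, stood at 154, 74.96, 397 and 312.

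The 4 factors of the Nsa1 module, a group that leaves the particle before it moves out of the nucleolus, were less reduced as a whole, with medians of -1.28 with rapamycin and -1.82 without. NSA1 had 91.3 normalised reads in HS_+Rapa, 42.0 in HS_noRapa, 170 in NHS_+Rapa and 160 in NHS_noRapa; it was 1.86-fold lower with rapamycin (1.45 to 2.40) and 3.81-fold lower without (2.5 to 6.0). RRP1 had 73.0, 58.5, 187 and 167, and RPF1 had 49.96, 30.0, 117 and 102. MAK16 stood apart from these 3 at 22.1, 7.50, 203 and 164, which is 9.21-fold lower with rapamycin (5.99 to 14.8) and 21.9-fold lower without (9.13 to 68.8), the last from 5 reads.

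The Ssf1 module, whose proteins bind together on nucleolar particles, had medians of -1.78 with rapamycin and -2.46 without, and all 4 genes were at least 2-fold lower in both. RRP14 was the least reduced, at 88.4 normalised reads in HS_+Rapa, 66.0 in HS_noRapa, 199 in NHS_+Rapa and 170 in NHS_noRapa. SSF1 had 28.8, 24.0, 130 and 157, and its paralog SSF2 had 25.9, 7.50, 72.0 and 78.6. The coding sequences of this pair are 92.1% identical and 4.04% of their 50-base windows occur in both genes, so how the reads were divided between them is uncertain. RRP15 had log2 ratios of -2.89 with rapamycin and -2.26 without, the reverse of the order of the medians. The difference was -0.63 on the deposited scale and 0.19 on the library total.

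RPF2 (YKR081C, chromosome XI 591506 to 592540), which with RRS1 brings the 5S ribosomal RNA particle into the subunit, had the lowest ratio of the 59 genes without rapamycin. It stood at 27.9 normalised reads in HS_+Rapa, 1.5 in HS_noRapa, 302 in NHS_+Rapa and 217 in NHS_noRapa. The HS_noRapa value is a single read, so its interval is wide: the gene was 10.8-fold lower with rapamycin (7.41 to 16.4) and 145-fold lower without (25.6 to 5762). RRS1 had 16.3, 10.5, 125 and 94.4 in the same order, 7.67-fold lower with rapamycin (4.62 to 13.5) and 8.99-fold lower without (4.13 to 23.2).

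The 6 RNA-binding and other nucleolar factors had medians of -2.84 with rapamycin and -3.35 without. BRX1, a protein of the same fold family as that of RPF2, stood at 28.8 normalised reads in HS_+Rapa, 6.0 in HS_noRapa, 257 in NHS_+Rapa and 224 in NHS_noRapa. It was 8.91-fold lower with rapamycin (6.11 to 13.4) and 37.4-fold lower without (14.3 to 139), from 4 reads. EBP2, whose protein is a partner of Brx1 on early particles, had 47.1, 22.5, 840 and 473 and was lower by a like factor in both, 17.9-fold with rapamycin (13.4 to 24.3) and 21.0-fold without (12.6 to 38.03). PUF6, also a translational repressor of ASH1 mRNA, had 44.2, 28.5, 388 and 443. NOP12, LOC1 and NOP16 were 2.74-fold to 6.04-fold lower with rapamycin and 4.90-fold to 7.13-fold lower without it.

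Enzymes of the later nucleolar and nuclear particle were low as well. NOG1 (YPL093W, chromosome XVI 370978 to 372921), a GTPase that stays on the particle into the cytoplasm, stood at 63.4 normalised reads in HS_+Rapa, 30.0 in HS_noRapa, 1015 in NHS_+Rapa and 639 in NHS_noRapa. It was 16.01-fold lower with rapamycin (12.5 to 20.8) and 21.3-fold lower without (13.6 to 35.2). The methyltransferase gene SPB1 had 56.7, 22.5, 535 and 469, and NOP2, a methyltransferase gene of the large ribosomal RNA, had 106, 64.5, 768 and 439. Both were at least 4-fold lower in both comparisons. Of all kept features, 3.63% were that low with rapamycin and 6.4% without.

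NOG2, a GTPase that checks the particle before export, had a lower heat ratio with the drug on the deposited scale, unlike most. It had 58.6 normalised reads in HS_+Rapa, 73.5 in HS_noRapa, 525 in NHS_+Rapa and 392 in NHS_noRapa, 8.96-fold lower with rapamycin (6.87 to 11.9) and 5.33-fold lower without (3.92 to 7.38). An intron of NOG2 holds the small nucleolar RNA gene SNR191 on the same strand, and whether reads of that RNA entered the NOG2 count was not tested. NUG1, another GTPase of the nuclear particle, had 141, 111, 525 and 482.

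MDN1 (YLR106C, chromosome XII 349006 to 363738, called REA1 in RefSeq), the giant ATPase that pulls assembly factors off the nuclear particle, was among the 2 genes least reduced without rapamycin. It stood at 1097 normalised reads in HS_+Rapa, 1270 in HS_noRapa, 2378 in NHS_+Rapa and 2350 in NHS_noRapa. It was 2.17-fold lower with rapamycin (2.02 to 2.33) and 1.85-fold lower without (1.70 to 2.01). Its coding sequence is 14.7 kb long, and per kilobase its 160 normalised reads in NHS_noRapa lie within the range of the 59 genes, from 57.7 for SSF2 to 380 for MRT4. It made up 23.5% of the summed level of the 59 genes in HS_+Rapa and 37.0% in HS_noRapa, against 11.1% in NHS_+Rapa and 12.7% in NHS_noRapa.

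The other nuclear remodelling factors did not share the MDN1 ratio. RSA4, the protein through which Mdn1 grips the particle, had 27.9 normalised reads in HS_+Rapa, 21.0 in HS_noRapa, 169 in NHS_+Rapa and 184 in NHS_noRapa and was 8.79-fold lower without rapamycin (5.05 to 16.5). The Rix1 complex, which docks Mdn1, gave 58.6, 36.0, 182 and 244 for RIX1 and 29.8, 10.5, 169 and 160 for IPI3. IPI1, another gene of the complex, was at 14.4, 3.0, 59.5 and 78.6, 4.13-fold lower with rapamycin (2.33 to 7.79) and 26.2-fold lower without (6.92 to 222), the second from 2 reads. NSA2, another late nuclear factor, had 35.6, 18.0, 221 and 177.

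Placeholders sit where a ribosomal protein will bind later. RLP24, which holds the place of the ribosomal protein Rpl24, stood at 24.98 normalised reads in HS_+Rapa, 7.50 in HS_noRapa, 317 in NHS_+Rapa and 182 in NHS_noRapa. MRT4, which holds the place of the stalk protein P0, had 19.2, 16.5, 309 and 270.2. They were 12.7-fold (8.52 to 19.7) and 16.1-fold (10.3 to 26.7) lower with rapamycin, and 24.2-fold (10.1 to 75.9) and 16.4-fold (8.95 to 33.4) lower without.

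TIF6 (YPR016C, chromosome XVI 592332 to 593069), which keeps the 60S subunit from joining the 40S subunit until it is mature, was the exception. It had 267 normalised reads in HS_+Rapa, 180 in HS_noRapa, 314 in NHS_+Rapa and 204 in NHS_noRapa. Its level was 1.18-fold lower in heat shock with rapamycin (1.00 to 1.38) and 1.14-fold lower without (0.885 to 1.46). Scaled to the library total its log2 ratio with rapamycin was 0.17 in place of -0.23; the other 58 genes stayed below 0 in both heat comparisons under every scaling tried.

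The 6 export and cytoplasmic release factors were all at least 2-fold lower in both comparisons, with medians of -4.01 with rapamycin and -3.93 without. REI1 (YBR267W, chromosome II 739841 to 741022), which releases the export factor Arx1 in the cytoplasm, stood at 3.84 normalised reads in HS_+Rapa and 3.0 in HS_noRapa, against 283 in NHS_+Rapa and 249 in NHS_noRapa. It was 73.5-fold lower with rapamycin (28.4 to 271) and 83.0-fold lower without (22.6 to 690), the second from 2 reads. ECM1, an export factor, had 4.80, 4.50, 135 and 150, and ALB1, the partner of ARX1, had 8.65, 9.0, 279 and 157. REI1 overlaps the gene SLM6 on the opposite strand over 453 bases, and whether the counting used strand is not given, so its reads are uncertain.

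The remaining export factors kept more reads. ARX1 stood at 31.7 normalised reads in HS_+Rapa, 27.0 in HS_noRapa, 363 in NHS_+Rapa and 407 in NHS_noRapa. LSG1, a cytoplasmic GTPase that frees the export adapter, had 36.5, 16.5, 277 and 236. NMD3, the adapter that the exportin binds, had 120, 66.0, 350 and 450, so it was 2.91-fold lower with rapamycin (2.38 to 3.59) and 6.83-fold lower without (4.97 to 9.59).

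Rapamycin at 30 °C moved none of the 59 genes by 2-fold in either direction, where 4.02% of all kept features were at least 2-fold lower and 4.7% at least 2-fold higher. The log2 ratios ran from -0.51 to 0.97 with a median of 0.19, which turned to -0.17 on the library total and -0.05 on the protein-coding total. On the deposited scale 42 of the 59 genes were above 0, as were 2886 of the 5642 kept features. On the library total 18 of the 59 were. Counting intervals lay above 1 for 19 genes, led by RRP15 (149 normalised reads with rapamycin against 75.8 without, 1.97-fold higher, 1.44 to 2.74), and below 1 for 7, among them DBP7 (108 against 154) and URB1 (361 against 513). Such intervals were not counted over all kept features.

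In heat shock more of the 59 genes passed the rule. With rapamycin 20 of the 59 genes passed it upward and none downward, against 4.56% and 2.46% of all kept features. The median log2 ratio was 0.70, against 0.04 over all kept features. Of the 59 genes 56 were above 0, as were 3049 of the 5642 kept features. The counting interval lay above 1 for 33 genes and below 1 for MDN1 alone (0.864-fold, 0.790 to 0.945), and such intervals were not counted over all kept features. Scaling to the library total or the protein-coding total put 39 or 31 genes at least 2-fold higher and all 59 above 0. Of the 5642 kept features 866 or 584 were then at least 2-fold higher, and their medians were 0.53 or 0.37. A pseudocount of 5 left 13 of the 59 genes and 185 kept features at least 2-fold higher. The gap between the median of the 59 genes and that of all features, 0.66, was the same under each scaling.

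Genes with few reads led this comparison. RPF2 was 18.6-fold higher with rapamycin (3.08 to 759), BRX1 and IPI1 each 4.81-fold higher (1.69 to 18.8 and 1.12 to 43.3), SSF2 3.46-fold (1.31 to 11.5) and RLP24 3.33-fold (1.26 to 11.1). Among genes with at least 25 reads in HS_noRapa, NOP7 was 2.21-fold higher (1.42 to 3.53), NSA1 2.17-fold (1.41 to 3.44), NOC2 2.05-fold (1.35 to 3.20) and HAS1 2.05-fold (1.48 to 2.88). In HS_noRapa 4 of the 59 genes had 3 reads or fewer and 13 had under 10; in HS_+Rapa these numbers were 0 and 3. The median gene had 52 reads in HS_+Rapa and 20 in HS_noRapa.

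**Figure D3:**
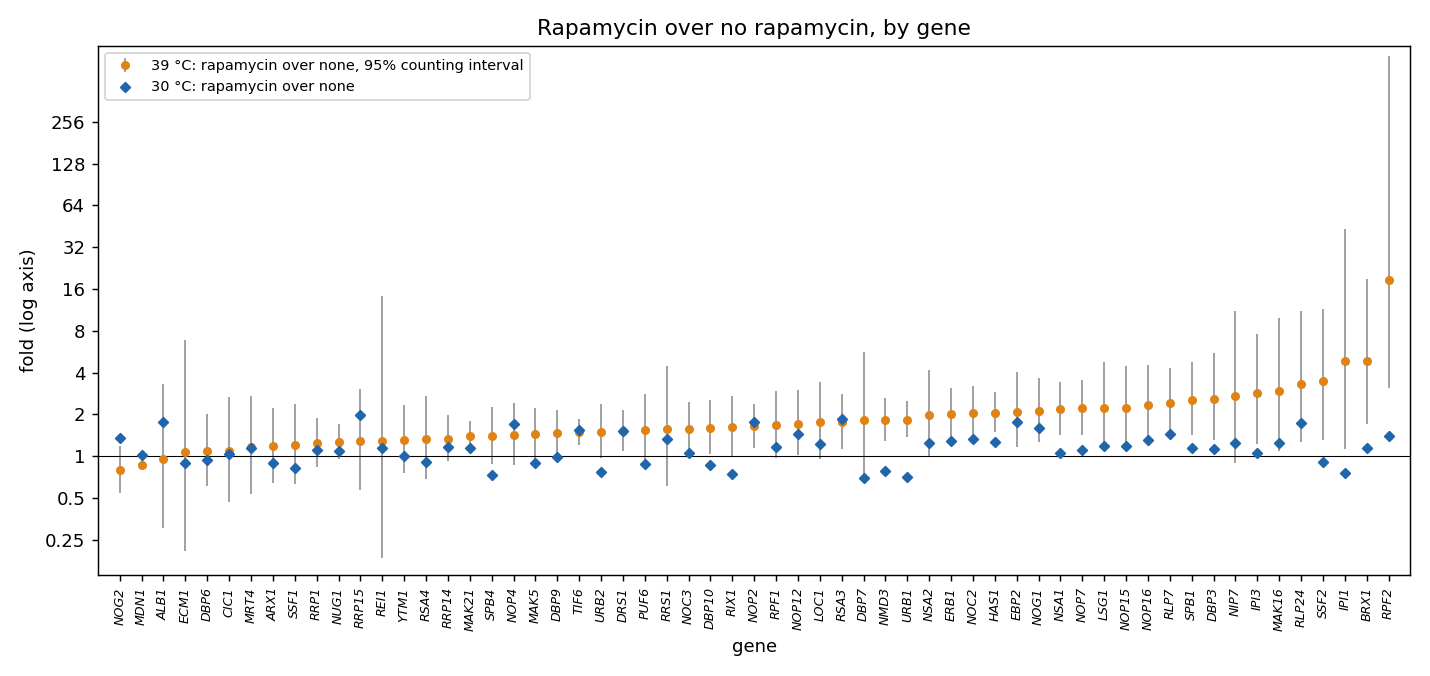
For each of the 59 genes the log axis gives the level with rapamycin over the level without it, at 39 °C (orange, bars are 95% counting intervals) and at 30 °C (blue), ordered by the 39 °C value. At 39 °C all but 3 genes (NOG2, MDN1 and ALB1) lie above 1 on the deposited scale. On the library total all 59 do, where the median log2 ratio of all kept features was 0.53. At 30 °C every point is between 0.70 and 1.97.

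Set side by side, the heat ratio with rapamycin was at least 2-fold above the one without for 13 of the 59 genes and at least 2-fold below it for none, against 9.25% and 8.29% of all kept features. The median difference of the 2 log2 ratios was 0.58, against 0.06 over all kept features. The counting interval of the ratio of the folds lay above 1 for 19 genes and below 1 for NOG2 (0.595, 0.391 to 0.911) and MDN1 (0.854, 0.765 to 0.953); on the library total the log2 differences were 0.10 for NOG2 and 0.62 for MDN1, and on the protein-coding total -0.18 and 0.34. These intervals were not counted over all kept features. URB1 (2.61, 1.88 to 3.64) and NMD3 (2.34, 1.59 to 3.49) had the largest ratios of the folds among genes with at least 40 reads in each library. Scaled to the library total or the protein-coding total, 45 or 35 genes were at least 2-fold above. Of the 5642 kept features 2472 or 1582 were at least 2-fold above under these scalings.

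Other ribosome-making genes were read from lists. Of 52 genes of the small-subunit (SSU) processome, which assembles the 40S subunit, 48 passed the rule downward in heat shock with rapamycin (median -2.01) and 51 without (median -2.86). UTP4 had 49.96 normalised reads in HS_+Rapa, 18.0 in HS_noRapa, 386 in NHS_+Rapa and 465 in NHS_noRapa, NOP1 had 108, 51.0, 1104 and 981, and NAN1, whose ratio without rapamycin was the highest of the list, had 221, 148, 345 and 289. Of 30 other 60S assembly factors, 22 were at least 2-fold lower with rapamycin (median -1.56) and 21 without (median -2.0). By ratio without rapamycin these ran from PWP1 (24.98, 10.5, 450.4 and 272) and RRP8 (22.1, 13.5, 186 and 177) to REH1, a paralog of REI1, at 230, 295, 171 and 167.

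RNA polymerase I, which transcribes the ribosomal RNA precursor, had 7 of 8 genes at least 2-fold lower in each heat comparison (medians -1.80 with rapamycin and -2.35 without). RPA12 was at 2.88 normalised reads in HS_+Rapa, 1.5 in HS_noRapa, 36.4 in NHS_+Rapa and 74.3 in NHS_noRapa, RPA43 at 20.2, 16.5, 256 and 182, and the initiation factor gene RRN3 at 164, 111, 174 and 172. The 60S ribosomal protein genes had medians closer to 0. Of 81, 32 were at least 2-fold lower with rapamycin (median -0.88) and 60 without (median -1.36). By ratio without rapamycin they ran from RPL22B (17.3, 10.5, 192 and 172) and RPL4A (90.3, 48.0, 542 and 370.3) to RPL41B (183, 247, 254 and 166). Most ribosomal protein genes come in near-identical pairs, so single members are uncertain.

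**Figure D4:**
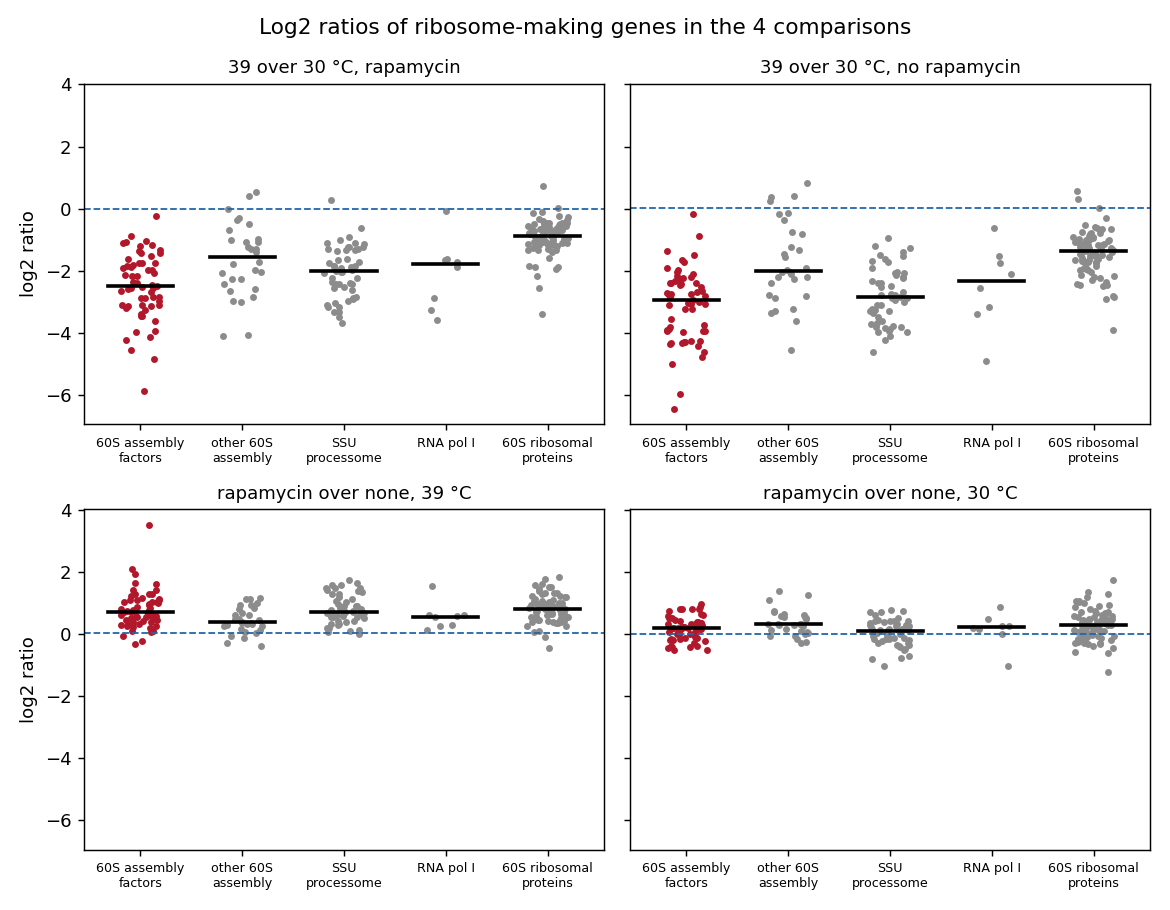
Each point is a gene, placed by its log2 ratio on log2(value + 1) in the 4 comparisons; black bars are list medians and the dashed line the median of all kept features. In the upper panels (heat shock with rapamycin, then without) the 59 genes (red) have medians of -2.50 and -2.95, the lowest of the 5 lists, and the 60S ribosomal proteins -0.88 and -1.36, the nearest to 0.

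Genes for known regulators of these promoters moved in both directions. DOT6 and TOD6 encode repressors that bind PAC: DOT6 had 363 normalised reads in HS_+Rapa, 328 in HS_noRapa, 130 in NHS_+Rapa and 183 in NHS_noRapa, whereas TOD6 had 21.1, 15.0, 108 and 162. In heat shock DOT6 was 2.80-fold higher with rapamycin and 1.79-fold higher without, and TOD6 was at least 2-fold lower in both comparisons. STB3, which binds RRPE, had 136, 145, 46.2 and 78.6, 2.95-fold higher with rapamycin and 1.85-fold higher without. SFP1, an activator of the regulon, had 362, 223, 143 and 189; in heat shock it was 2.53-fold higher with rapamycin, and without it the log2 ratio of 0.24 turned to -0.20 on the library total.

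Regulators that act mainly on ribosomal protein genes were also measured. CRF1, a corepressor, had 28.8 normalised reads in HS_+Rapa, 31.5 in HS_noRapa, 5.33 in NHS_+Rapa and 8.58 in NHS_noRapa and was at least 2-fold higher in both. IFH1, its competitor at these promoters, had 159, 95.9, 274 and 206, and FHL1, the factor that recruits both, had 78.8, 61.5, 101 and 129. HMO1 had 395, 349, 1102 and 579, and RAP1 had 220.0, 223, 246 and 190.2. SCH9, the kinase through which TORC1 signals to Dot6, Tod6 and Stb3, had 148, 121, 394 and 422, lower by more than 2-fold in both. mRNA levels say nothing of the activity of these proteins.

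The PAC core was present in 54 of the 59 promoters (91.5%) and in 19.1% of 6001 nuclear protein-coding promoters. The longer PAC form GCGATGAG was in 35 (59.3%), against 4.05%. The RRPE core was in 57 (96.6%), against 24.4%, and the longer form GAAAAATTT in 31 (52.5%), against 6.57%. Both cores stood together in 52 promoters (88.1%), against 7.53%, and none of the 59 lacked both, where 64.01% of all promoters do. The longer forms contain the cores, so these counts overlap.

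Motifs of other regulators were found in fewer of the 59 promoters than the PAC and RRPE motifs were. The stress response element AGGGG was in 6 of the 59 promoters (10.2%), against 22.2% of all, and GAANNTTC, part of the element that Hsf1 binds, in 4 (6.78%), against 11.5%. The Rap1 motif ACACCCA was in none, against 2.23%, and the Reb1 motif TTACCCG in 11 (18.6%), against 7.90%. A match is a string of letters, not a bound site, and a missing match says only that these letters are not in the window.

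The matches lay mostly in the same stretch of the promoters. A stretch of AAAATTTT was counted once for each strand, so RRPE matches are not numbers of sites. Counted to the base nearest the start codon, PAC cores lay at a median of 115 bases (quartiles 95.5 and 135.5) and RRPE cores at 133 (111.5 and 155) in the 59 promoters; in all promoters the medians were 141 and 142, with quartiles of 88.8 and 203 for the PAC core and 101 and 197 for the RRPE core. MDN1 has its nearest PAC core at 200 bases and its nearest RRPE core at 214, and TIF6 has them at 90 and 190. RLP24, 24.2-fold lower in heat shock without rapamycin, has them at 191 and 240. Whether position and ratio go together over the 59 genes was not tested.

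**Figure D5:**
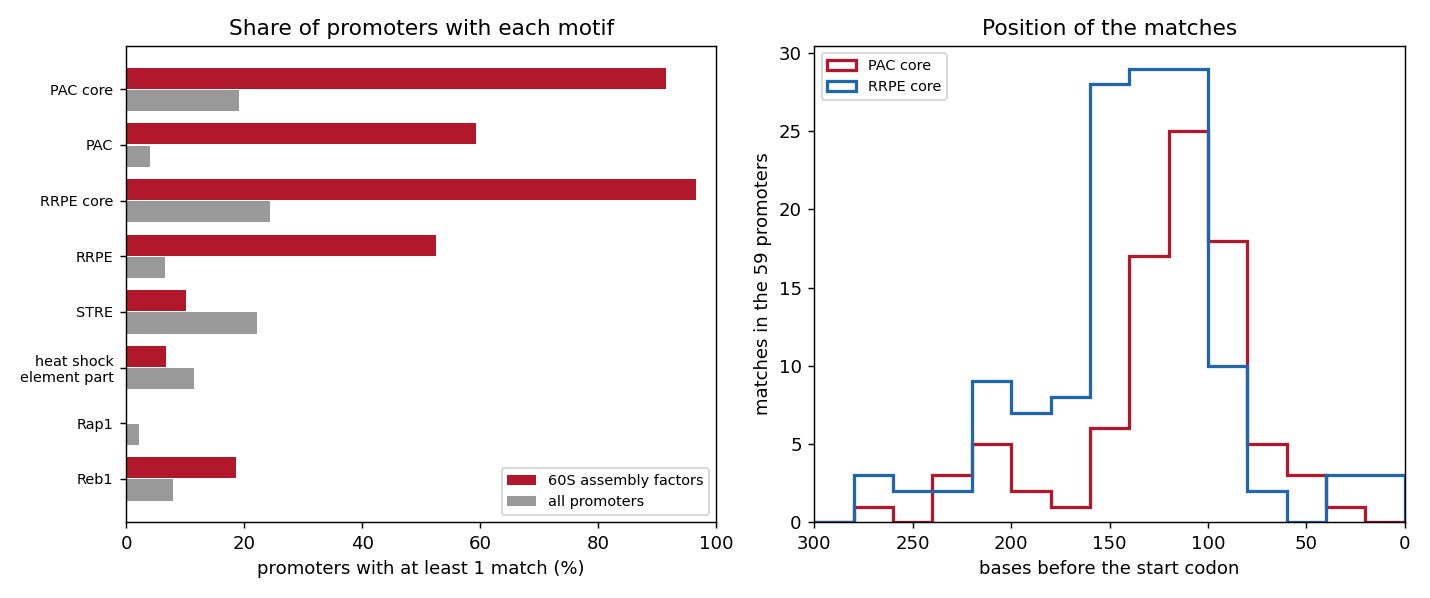
Left, the share of promoters with at least 1 match to each motif in the 59 genes (red) and in 6001 promoters (grey). Right, the number of PAC core (red) and RRPE core (blue) matches in the 59 promoters by distance from the start codon in 20-base bins. AAAATTTT was counted once for each strand, so RRPE matches outnumber RRPE sites. The PAC and RRPE bars are longer for the 59 genes, and most matches lie between 80 and 160 bases before the start codon.

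Genes outside the 59 were then split by the same cores. The genes of the other ribosome-making lists, such as the SSU processome, were left in. Among other kept genes, 215 of 389 with both cores (55.3%) were 2-fold or more lower in heat shock without rapamycin, with a median log2 ratio of -1.22. With the PAC core alone 24.0% of 588 were, with the RRPE core alone 22.3% of 948, and with neither 13.1% of 3447, whose median was 0.15. With rapamycin these shares were 46.8%, 16.7%, 16.8% and 8.70%. Within the 59 genes, the 54 with a PAC core had median log2 ratios of -2.55 in heat shock with rapamycin and -2.90 without it. The 5 that lack it (NSA1, SPB1, RIX1, IPI1 and IPI3) had -1.97 and -3.81, so the order of the medians turned between the comparisons. The 57 genes with an RRPE core had medians of -2.54 with rapamycin and -3.02 without it, and the 2 that lack it, MAK5 and RRP1, -1.55 and -1.96. For the longer RRPE form the medians were -2.85 and -3.11 in the 31 genes that hold it, against -1.95 and -2.44 in the 28 that do not; these splits were not tested.

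The genes next door on the upstream side were mixed. Of 28 kept neighbours that start back to back with one of the 59 genes, 10 passed the rule downward in heat shock without rapamycin and 3 upward, and of 27 kept neighbours in the same direction 11 were lower and 3 higher, where 19.3% and 19.8% of all kept features were. Several of the low neighbours are ribosome factors too, such as UTP13 upstream of RSA3, UTP9 upstream of RIX1 and RRP3 back to back with SSF1, named after their values were seen. RTC3, upstream of RPF1, and BDH1, upstream of ECM1, were among those at least 2-fold higher.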

How the data were processed

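RNA was measured by sequencing in 4 libraries, 1 per group. Per the labels' protocols, Illumina TruSeq libraries were made from total RNA after phenol/chloroform extraction. Per the submitters' processing notes, TopHat, HTSeq and sacCer3 were used; strand handling is not given. The signal values deposited by the authors are counts scaled by a factor for each library, with 2 decimals, as the values show: 100% of those above 0 were whole multiples of the value of 1 read, within 0.0055. The origin of the factors is not given; those of the median-of-ratios method, applied to the recovered reads, differed by at most 0.515%.

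Ratios were taken from the deposited values. A mean of 5 or more over the 4 libraries was required (5642 features, all 59 genes among them). Calls and medians use log2(value + 1), and a gene is called at a 2-fold ratio. Folds are plain ratios of values; their 95% intervals are exact conditional binomial intervals of the reads, and those of shares are Clopper-Pearson intervals. No molecular identifiers are named, so intervals cover counting error only. The smallest depth was 1561620 reads, at which 1 read is worth 1.43 normalised reads. In HS_noRapa, with 2026880 reads, 1 read is worth 1.50, the most of the 4 libraries.

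The members, their roles and the gene lists were chosen with earlier results of these data known. All 59 genes are named; among others, all regulators are, and from each list the 2 genes lowest and the 1 highest in heat shock without rapamycin. Positions, neighbours and promoters were read from the RefSeq annotation and genome of R64, the assembly that sacCer3 names; promoters are the 300 bases before each start codon. Alternatives were 3 other scalings, pseudocounts of 0.25 and 5, 2 other filters, and edgeR's quasi-likelihood test (edgeR 4.0.16, Benjamini-Hochberg adjustment) on the recovered reads. The code was tested on simulated data. Python 3.11.15 and scipy 1.17.1 were used.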

Additional observations from a re-analysis of the deposited data

How the results depend on the processing

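With 1 library per group no library could be left out. No paired analysis was possible because the labels give no replicate numbers that pair libraries across groups; the additive test of heat and rapamycin below uses both pairs of temperatures. Of 136 values under the alternatives, 113 stayed within the counting interval or within 1.5 times the count; the rest follow. Scaled to the library total, the summed log2 ratio in heat shock was -1.79 with rapamycin and -2.88 without, the median with rapamycin -2.09, the rapamycin comparison at 30 °C had a median of -0.17 and a summed ratio of -0.15, the one in heat shock had 39 genes at least 2-fold higher and a summed ratio of 0.93, and the difference of the heat ratios had 45 genes at least 2-fold higher, a median of 1.42 and a summed value of 1.09. Scaled to the protein-coding total, the summed ratios in heat shock were -1.95 with rapamycin and -2.76 without, -0.033 for rapamycin at 30 °C, 0.77 with 31 genes at least 2-fold higher for rapamycin in heat shock, and 0.81 with 35 genes and a median of 1.14 for the difference. A pseudocount of 5 left 13 genes higher with rapamycin in heat shock. As a share of protein-coding reads the 59 genes took 0.324% in HS_+Rapa, 0.189% in HS_noRapa, 1.25% in NHS_+Rapa and 1.28% in NHS_noRapa.

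The scalings move all features together. On the library total 866 of the 5642 kept features were at least 2-fold higher for rapamycin in heat shock, and 2472 for the difference. On the protein-coding total these numbers were 584 and 1582. On the library total the median of all kept features shifted to 0.40 in heat shock with rapamycin, -0.42 in heat shock without, 0.53 for rapamycin in heat shock, -0.34 for rapamycin at 30 °C and 0.90 for the difference. The share of higher among called features went with it: in the same order 78.5%, 29.9%, 92.0%, 16.4% and 94.97%, in place of 55.6%, 50.6%, 64.9%, 53.9% and 52.7%. On the protein-coding total these shares were 70.9%, 35.1%, 86.6%, 25.1% and 89.7%. Relative to that median the 59 genes stayed at -2.49, -2.96, 0.66, 0.17 and 0.53.

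In an additive edgeR quasi-likelihood test with Benjamini-Hochberg adjustment, heat called 57 of the 59 genes, all of them lower. Each had an adjusted p of at most 0.00121. Of all 5642 features heat called 2230, higher and lower together. The size rule called 57 of the 59 genes in each heat comparison and 56 in both. In the edgeR test of heat MDN1 had an adjusted p of 0.0895 and TIF6 of 0.530. Rapamycin called 0 of the 59 genes and 26 of all features. At an unadjusted p under 0.05 in that test stood 15 of the 59, and the number over all features was not counted. The model leaves 1 residual degree of freedom and takes any interaction as noise. The 59 genes had the fewest reads in HS_noRapa, where 13 of them had under 10, which widens their intervals.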
